A study of Homo sapiens with 9 samples.

Results

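CSF3R and GRIK3 lie next to each other on the short arm of chromosome 1, and the stretch of chromatin that holds both was followed by Hi-C in growing and RIS IMR90 cells. CSF3R encodes the receptor for granulocyte colony-stimulating factor, a class I cytokine receptor best known for driving neutrophil production, and GRIK3 encodes a subunit of the kainate receptors, glutamate-gated ion channels of neurons. Neither gene has an established role in fibroblasts. They make up 2 of the 20098 protein-coding genes of the annotation used, and were chosen from measured contact values of these same libraries, so every comparison between RIS and growing cells below is a description, counts of called pairs included. The region comprised 75 bins of 40 kb (hg19 chr1:36000001-39000000) and its core 24 bins (chr1:36920001-37880000), of 69632 bins with values in all 5 libraries. All 75 bins had values.

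IMR90 is a diploid fibroblast line from human foetal lung. All cells carried ER:HRAS(G12V), the RAS oncogene fused to an oestrogen receptor domain, so that 4-hydroxytamoxifen (4OHT) switches the protein on. The 3 growing libraries came from cells without 4OHT, and the third also carried an MSCV vector. The 2 RIS libraries came from cells given 100 nM 4OHT for 6 days. The construct was delivered by stable infection, and cells without it that received 4OHT were not among the libraries used here, so exposure to 4OHT and oncogene activity cannot be told apart. Hi-C holds no expression values, so the labelled cell type could not be checked against marker genes. The contacts recovered from the deposited values numbered 154318992, 175410468 and 180775315 for the growing cells and 109967509 and 150689993 for the RIS cells, in replicate order, the order of all values below. The capture Hi-C libraries of the series list no contact in this region and were not used.

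Chromatin is folded into domains whose loci meet each other more often than loci beyond a border. Many borders and loop ends hold sites for CTCF, a zinc finger protein that stops the cohesin ring as it extrudes a loop, typically where 2 sites point toward each other. On a larger scale, active chromatin (compartment A) and inactive chromatin (compartment B) each prefer contact with their own kind. In Hi-C these features are averages over a cell population, and a contact made in more cells cannot be told apart from one made more often in each cell.

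CSF3R occupied chr1:36931644-36948879 on the minus strand, within the first bin of the core, together with MRPS15, a protein of the mitochondrial ribosome. GRIK3 occupied chr1:37261128-37500116, also on the minus strand, so its start site lay at the right-hand end of its 7 bins. No other protein-coding gene overlapped the core. The core thus divided into the CSF3R bin, an interval of 280 kb between the genes, the 280 kb of GRIK3, and 360 kb upstream of GRIK3, and both intervals held 3 lncRNA genes each. To the left lay 20 protein-coding genes in 920 kb. To the right lay 19 in 640 kb, followed by 480 kb with no protein-coding gene. Positions below are given in kb from the left end of the core, as the start of a 40 kb bin.

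The core consensus of CTCF, 14 bases searched on both strands of GRCh37 and given here by name, had 10 matches in the region and 2 in the core. Of the usable bins of chromosome 1, 8.12% held a match. The matches at both ends of the core are shown because the strongest contacts of the core joined these ends. Other matches of the region are not shown. Among them is the nearest one left of the core, on the minus strand in the bin at -120 kb. Capitals mark the match, and each sequence is written 5′ to 3′ on its own strand.
Left end of the core, bin at 80 kb, plus strand, chr1:37019599-37019624: cgattaCCACCAGAGGGCGCtcgatg
Right end of the core, bin at 920 kb, minus strand, chr1:37862483-37862508: ctgcgcCCAGCAGATGGCAGggtttt
First bin beyond the core, at 960 kb, minus strand, chr1:37900061-37900086: ctctgtCCAGCAGGGGGCAGccgcag
Second bin beyond the core, at 1000 kb, plus strand, chr1:37920609-37920634: cagtcaCCAGCAGGGGGCGCcacagg
The match at the left end and the first 2 at the right end pointed toward each other. These are letters in the reference only, and the study's data on CTCF binding were not used here.

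Contacts within the core were more frequent in RIS cells. Observed contact was divided by the mean for the same distance on chromosome 1, so that 1, or 0 on the log2 scale, is the expected level. The log2 mean over the 276 pairs of different bins in the core was 0.57, 0.53 and 0.60 in growing replicates 1 to 3 and 0.89 in both RIS replicates. The RIS libraries lay above all growing libraries, by 0.32 on the log2 scale or 1.25-fold (growing 0.57 ± 0.04, SD, n = 3; RIS 0.89 ± 0.0023, SD, n = 2). Among 66349 overlapping windows of the same length across the genome, the RIS libraries lay above the growing ones in 39.2%, and the median change over all windows was 0.01. In 58 windows, the core itself included, the rise was as large as in the core or larger. The region was chosen by this contrast, so nothing is read from that rank. These pairs rested on 10380, 10479 and 11139 recovered contacts in growing replicates 1 to 3 and on 9012 and 13210 in RIS replicates 1 and 2. By a listing of read duplicates in the study, growing replicates 1 and 2 and RIS replicate 1 held few and the other libraries many, where the growing library listed there as empty vector was taken to be replicate 3 from its labelled vector. The change was 0.34 among the former and 0.29 among the latter.

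**Figure D1:**
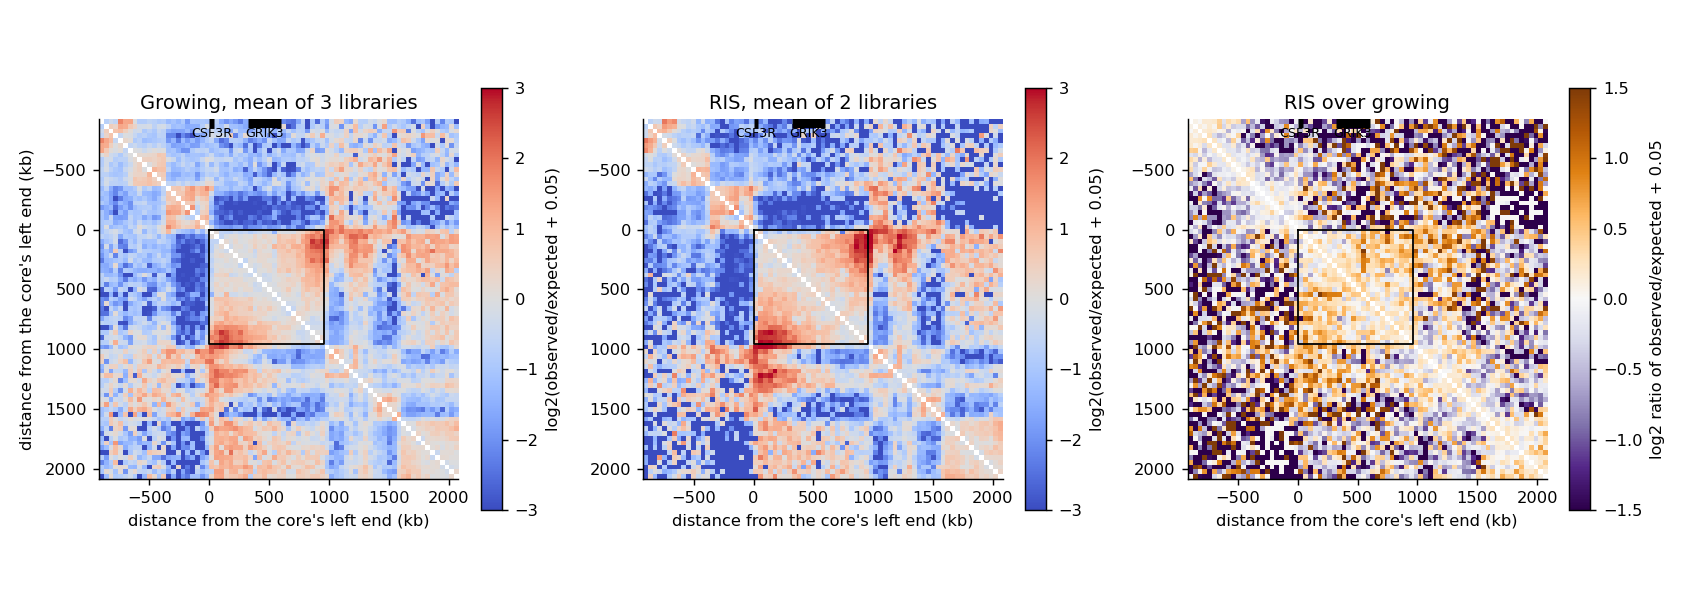
Contact maps of the region at 40 kb, with both axes in kb from the left end of the core and the core boxed. Left and middle, log2 of observed over expected contact plus 0.05, mean of the 3 growing and 2 RIS libraries; right, their log2 ratio. The corner of the box that joins the ends of the core holds its highest values in growing cells, and within the box RIS was the higher mean in 215 of 276 pairs; far from the diagonal single pairs hold few contacts and scatter.

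The excess was larger at longer distances within the core. For bins 80 to 200 kb apart the log2 mean was -0.11, -0.09 and -0.04 in growing libraries and 0.06 and 0.05 in RIS libraries. For bins 720 to 920 kb apart, which join the ends of the core, it was 1.87, 1.90 and 1.94 in growing libraries and 2.26 and 2.40 in RIS libraries. These ends were therefore in contact well above the expected level in growing cells already, with a further 1.34-fold in RIS, against 1.10-fold at the shorter range. Neighbouring bins differed 1.20-fold, so the order over distance was not strict.

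The largest difference between blocks of the core joined the interval between the genes and the interval upstream of GRIK3. This block gave log2 values of 1.39, 1.40 and 1.44 in growing libraries and 1.86 and 1.87 in RIS libraries. The interval between the genes also met GRIK3 more often, with 0.16, 0.07 and 0.15 in growing and 0.53 and 0.42 in RIS libraries. Contacts among the bins of GRIK3 itself stood at -0.11, -0.09 and -0.14 in growing and 0.21 and 0.14 in RIS libraries, a change from just under to just over the expected level. GRIK3 with its upstream interval gave 0.50, 0.45 and 0.57 against 0.74 and 0.68. In each of these blocks the groups did not overlap.

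Contacts of CSF3R with each block of the core overlapped between the groups. Its contact with GRIK3 was -0.26, -0.70 and -0.94 in growing libraries and -1.07 and -0.30 in RIS libraries, and the groups overlapped. Of the 7 bins of GRIK3, 6 overlapped and the bin at 400 kb was lower in both RIS libraries, with 15, 8 and 9 contacts in growing libraries and 5 and 8 in RIS libraries. The value over all of GRIK3 rested on only 21 to 51 contacts per library. With the interval between the genes, CSF3R gave -0.50, -0.64 and -0.56 in growing and -0.60 and -0.68 in RIS libraries, below the expected level in all 5. With the interval upstream of GRIK3 the values were 0.69, 0.58 and 0.97 against 0.69 and 1.15, above the expected level in all 5.

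**Figure D2:**
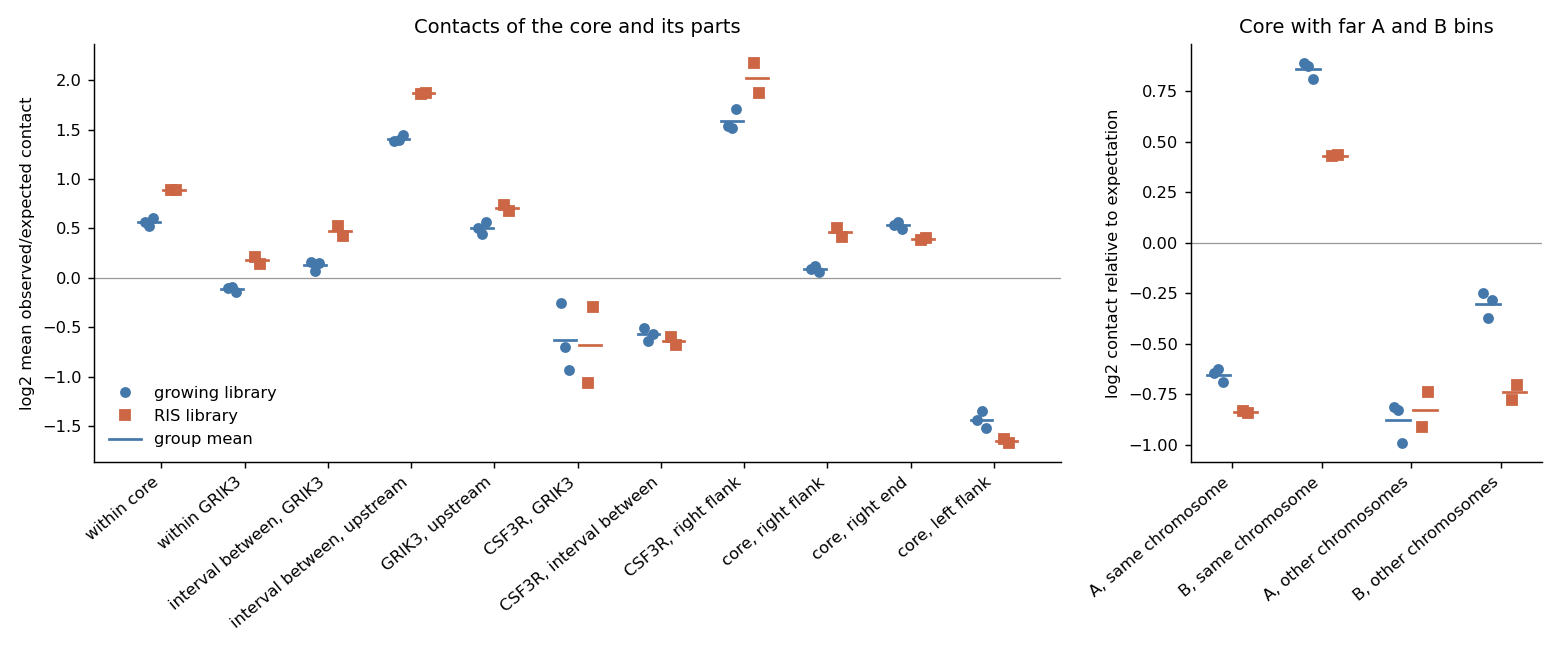
Contact of the core and its parts in every library. Left, log2 mean observed over expected contact for pairs of blocks; right, log2 contact of the core with far A and B bins, where 0 is the mean for that distance or, between chromosomes, the mean over all bins. Circles are growing libraries (n = 3), squares RIS libraries (n = 2) and lines group means. The RIS squares lie above the circles within the core as a whole and with the right flank. They overlap them for CSF3R with GRIK3, CSF3R with the interval between the genes, and A bins of other chromosomes. They lie below them for the left flank, the right end, B bins, and A bins of the same chromosome.

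Single pairs were far noisier than blocks. A pair of core bins held between 0 and 387 contacts in a library, with a median of 27. Of the 276 pairs, 106 (38.4%) were higher and 13 (4.71%) lower in both RIS libraries than in all growing libraries. Over all 1959041 pairs of bins tested up to 2 Mb, these shares were 14.8% and 15.6%, and since the region was chosen by this contrast nothing is read from the difference. The bin of CSF3R was part of 4 of the 13 lower pairs and of 2 of the 106 higher ones. With the bin at 200 kb, CSF3R stood at 0.63, 0.76 and 0.71 times the expected contact in growing libraries and at 0.48 and 0.27 times in RIS libraries. These values rested on 25, 28 and 28 contacts in growing libraries and 13 and 10 in RIS libraries.

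Limma on balanced values called 0 of the 276 pairs at a false discovery rate of 5%, against 0.0393% of all pairs, and 28 pairs (10.1%) had an unadjusted p under 0.05, of which 24 were higher in RIS, against 10.2% of all pairs. Limma voom on recovered contacts called 6 pairs, all higher in RIS, against 0.572% of all pairs. The pairs were chosen by the same contrast, so nothing is read from either count. The first of them joined the bin of the GRIK3 start, at 560 kb, with the bin at 240 kb, between the genes. This pair held 30, 28 and 30 contacts in growing libraries and 39 and 50 in RIS libraries, and its observed over expected value went from 1.28, 1.18 and 1.26 to 2.40 and 2.07. The GRIK3 start also met the next bin upstream, at 600 kb, more often, with 1.02, 0.915 and 0.895 in growing and 1.26 and 1.30 in RIS libraries. Another pair lay within GRIK3, at 400 and 480 kb, where 0.775, 0.746 and 0.725 went to 1.07 and 1.15. The other 3 lay outside the genes, and 2 of these joined the first bin after CSF3R, at 40 kb, with the bins at 840 and 880 kb. Without either RIS replicate, voom called 0 pairs in the core.

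Of the 6 pairs among the 4 bins that held the CTCF matches shown above, those that joined the left end to the right were above the expected contact. Those among the bins at 920, 960 and 1000 kb were below it in every library. The matches were shown for the strong contact of these ends, so high contact between their bins follows from that choice. The part of the direction of the matches was not tested. The bins at 80 and 920 kb, with matches that point toward each other, stood at 5.002, 5.86 and 8.41 times the expected contact in growing libraries and at 6.44 and 8.68 times in RIS libraries, and the groups overlapped. The bins at 80 and 960 kb, also pointing toward each other, stood at 5.73, 8.24 and 6.28 in growing libraries and at 12.8 and 11.01 in RIS libraries. The latter pair held 23, 38 and 27 contacts in growing libraries and 38 and 41 in RIS libraries. The bins at 80 and 1000 kb, with matches on the same strand, stood at 2.57, 3.72 and 1.73 in growing libraries and at 4.09 and 5.36 in RIS libraries, a 1.77-fold difference as for the bins at 80 and 960 kb. The bins at -120 and 1000 kb, with matches pointing away from each other, stood at 6.09, 2.70 and 3.82 in growing libraries. They were lower in RIS libraries, at 2.61 and 1.48, on 3 to 12 contacts per library. The bins at -120 and 960 kb were higher in RIS, with 0.99, 1.27 and 0 against 2.91 and 1.57. The bin at -120 kb overlapped between the groups in contact with the bins at 80 and 920 kb. The pair of highest mean contact in growing cells within the core joined the bins at 80 and 840 kb, at 6.29, 6.73 and 6.53, with 6.56 and 8.20 in RIS cells. High contact of the ends was therefore spread over several neighbouring bins and was not limited to those with a match. A bin without a match to this 14-base consensus may still be bound by CTCF, and binding was not examined here.

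Contacts of the core beyond its ends differed by side. With the gene-rich right flank the log2 mean was 0.09, 0.12 and 0.06 in growing libraries and 0.50 and 0.42 in RIS libraries. With the gene-free right end beyond it, the values were 0.54, 0.57 and 0.49 in growing and 0.38 and 0.40 in RIS libraries. With the left flank they were -1.44, -1.35 and -1.51 in growing and -1.63 and -1.67 in RIS libraries. The core thus met its right-hand neighbours more often in RIS cells, and both the left flank and the gene-free end less often. Taken bin by bin, 12 of the 28 bins to the right were higher and 3 lower in both RIS libraries, and 1 of the 23 bins to the left was higher and 7 lower. For strips of 24 bins with 1 bin up to 2 Mb away across the genome, 24.0% were higher and 27.3% lower.

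Among the genes of the right flank, CDCA8, a subunit of the chromosomal passenger complex of mitosis, had log2 contact with the core of 0.78, 0.65 and 0.66 in growing libraries and 1.37 and 1.22 in RIS libraries. C1orf109, next to it, had 0.91, 0.74 and 0.78 against 1.43 and 1.38. Its bin is also part of CDCA8, so these are not separate measurements. The largest change was that of FHL3, a LIM domain protein, by 0.82, but it rested on as few as 6 contacts in a library. ZC3H12A, an RNase that degrades cytokine mRNAs and the first gene beyond the core, had -0.09, 0.05 and -0.11 against 0.24 and 0.32. Beyond it, MEAF6, DNALI1, GNL2 and RSPO1, a secreted activator of Wnt signalling, were also higher in both RIS libraries, by 0.30 to 0.35. Of these, MEAF6 shares a bin with ZC3H12A, and GNL2 shares bins with DNALI1 and RSPO1.

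On the left, the 6 genes nearest the core were THRAP3, SH3D21, EVA1B, STK40, LSM10 and OSCP1. Their contact with the core was below the expected level in every library. LSM10, a component of the U7 ribonucleoprotein, had -3.00, -3.03 and -2.70 in growing libraries and -2.71 and -3.56 in RIS libraries. Of these 6 genes only THRAP3 did not overlap between the groups, with -3.37, -3.30 and -3.43 against -3.54 and -3.74. The largest falls on this side were at the far left end, where NCDN and KIAA0319L, which share a bin of the region, had -2.24, -1.65 and -1.47 against -2.56 and -2.38, and C1orf216 had -1.55, -1.26 and -1.23 against -2.25 and -1.78. These far values rested on as few as 11 and 14 contacts in a library.

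The profiles of both genes differed in shape. CSF3R had its highest contact beyond the core, in the gene-rich right flank, with a log2 mean over this flank of 1.54, 1.52 and 1.71 in growing libraries and 2.17 and 1.87 in RIS libraries. The change was 0.64 among the libraries with few duplicates and 0.16 among those with many. With the bin of ZC3H12A, at 1000 kb, CSF3R stood at 4.50, 4.77 and 4.21 times the expected contact in growing libraries and at 6.01 and 7.34 times in RIS libraries, on 14 to 24 contacts. In its profile, 7 of the 28 bins to the right were higher and 1 lower in both RIS libraries, 2 of 23 bins in the core were higher and 4 lower, and 0 of the 23 bins to the left were higher and 3 lower, against the 14.8% and 15.6% of all pairs given above. With the left flank as a whole CSF3R gave -0.56, -0.49 and -0.79 in growing libraries and -1.01 and -0.80 in RIS libraries, where RIS replicate 2 lay next to growing replicate 3.

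GRIK3 had its highest mean contact within the core, toward the right end of it. In the core, 9 of the other 17 bins met GRIK3 more often in both RIS libraries and 0 less often, and the remaining 8 overlapped. The background for strips of 7 bins with 1 bin up to 2 Mb away was 18.3% higher and 23.2% lower. The bin at 920 kb, which holds the CTCF match at the right end, stood at 1.85, 1.59 and 1.67 times the expected contact with GRIK3 in growing libraries and at 2.45 and 2.41 times in RIS libraries. The bin at 240 kb went from 0.90, 1.13 and 1.03 to 1.47 and 1.43. Beyond the core, 3 of the 28 bins to the right were higher and 2 lower, and 1 of the 23 bins to the left was higher and 3 lower. With the gene-rich right flank as a whole GRIK3 gave -0.36, -0.37 and -0.39 in growing and -0.05 and -0.36 in RIS libraries, of which RIS replicate 1 alone stood apart. Of the 19 genes of this flank, 16 overlapped in contact with GRIK3, 1 lacked a value in at least 1 library, 1 was higher and 1 lower in both RIS libraries, and the latter 2 were named after their values were seen. The higher one was EPHA10, an ephrin receptor gene, with 0.45, 0.40 and 0.24 against 0.97 and 0.67. The lower one was UTP11, with -1.48, -1.71 and -1.71 against -1.83 and -1.73, on as few as 9 contacts.

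**Figure D3:**
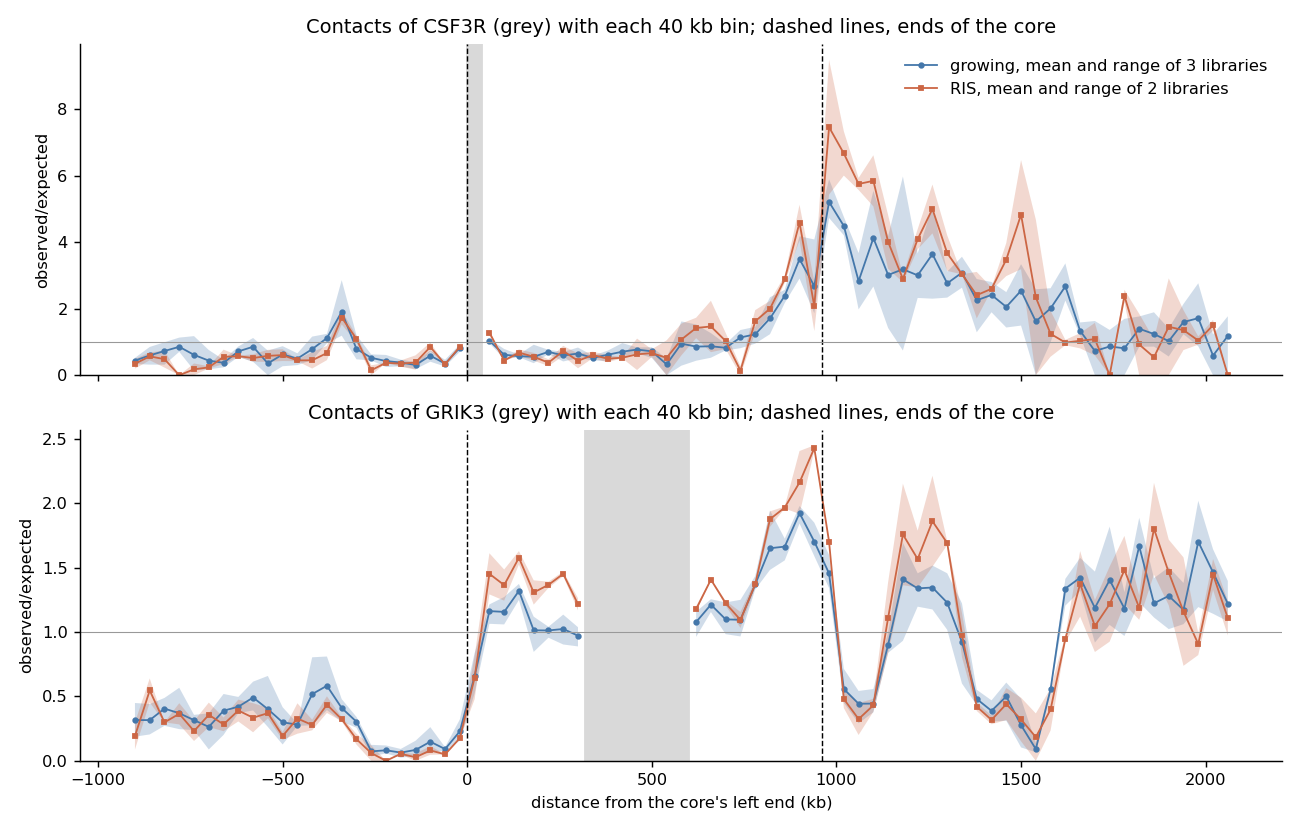
Contact of CSF3R (top) and GRIK3 (bottom) with each 40 kb bin of the region, as observed over expected contact against distance from the left end of the core in kb. Lines are means and bands the range of the 3 growing and 2 RIS libraries, and the bins of the gene are grey. CSF3R peaks at the first bin beyond the core, at 960 kb, with means of 5.22 in growing and 7.47 in RIS libraries, while GRIK3 peaks inside the core, at 880 kb in growing (1.92) and 920 kb in RIS libraries (2.43), and rises again between 1160 and 1280 kb.

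The insulation score, the log2 of mean contact across a position within 520 kb to either side relative to the chromosome mean, placed a border at each end of the core in every library. The left end scored -1.61, -1.86 and -1.87 among growing libraries and -1.84 and -1.82 among RIS libraries, the lowest level of the region in 4 libraries, and the groups overlapped. The minimum lay at 0 kb in 4 libraries and at 40 kb in growing replicate 1, on either side of the bin of CSF3R. The right end, 960 kb, scored -0.90, -0.93 and -0.93 among growing libraries and -0.80 and -0.83 among RIS libraries, so this dip was shallower than the left one and shallower in RIS. Inside, the score peaked over GRIK3, at 520 kb in 4 libraries and at 560 kb in growing replicate 2. The position at 520 kb scored 0.63, 0.57 and 0.69 in growing and 0.99 and 0.97 in RIS libraries. Of the 23 positions inside the core, 21 were higher in both RIS libraries and 0 lower, where 36.8% of all positions were higher. Neighbours among these positions share most of their contacts, which include core contacts given above, so they are not separate measurements. The mean over these positions changed by 0.23, from -0.13 ± 0.03 (SD, n = 3) to 0.10 ± 0.03 (SD, n = 2). Outside the core, 19 of the 52 positions were higher and 15 lower. The border 360 kb to the left was deeper in RIS cells, with -1.03, -1.02 and -1.13 against -1.36 and -1.46, while the score within the gene-free right end was higher, with 0.38, 0.39 and 0.45 against 0.74 and 0.72 at 2000 kb.

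The compartment score differed in sign between the bins that hold the genes. It is the first component of the contact correlations of chromosome 1 in 120 kb bins, in units of its SD, positive on the gene-dense side. The bin that ends with CSF3R, chr1:36840001-36960000, scored 0.74, 0.65 and 0.81 in growing libraries and 0.66 and 0.83 in RIS libraries, on the A side in all 5. Most of this bin lies in the left flank, so its score is not that of CSF3R alone. The 8 bins centred in the core scored between -1.13 and -0.50 in growing libraries, on the B side. All 8 were higher in both RIS libraries and 0 lower, against 28.8% higher among all bins, and their mean went from -0.80 ± 0.02 (SD, n = 3) to -0.29 ± 0.02 (SD, n = 2), a change of 0.51. The median change over 23299 bins was -0.04. The bin inside GRIK3 starting at chr1:37320001 moved from -1.02, -1.01 and -0.95 to -0.45 and -0.21. The mean of no core bin crossed 0, and the first bin after CSF3R came closest, with -0.55, -0.61 and -0.56 against 0.01 and -0.06. In the right flank, the bins starting at chr1:38040001 and chr1:38160001, which hold C1orf109 and CDCA8 among others, did change sign, the latter from -0.26, -0.27 and -0.22 to 0.15 and 0.32. The 4 bins of the gene-free right end, also on the B side, were likewise higher in both RIS libraries, by 0.20 to 0.56, so the rise was not particular to the core.

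**Figure D4:**
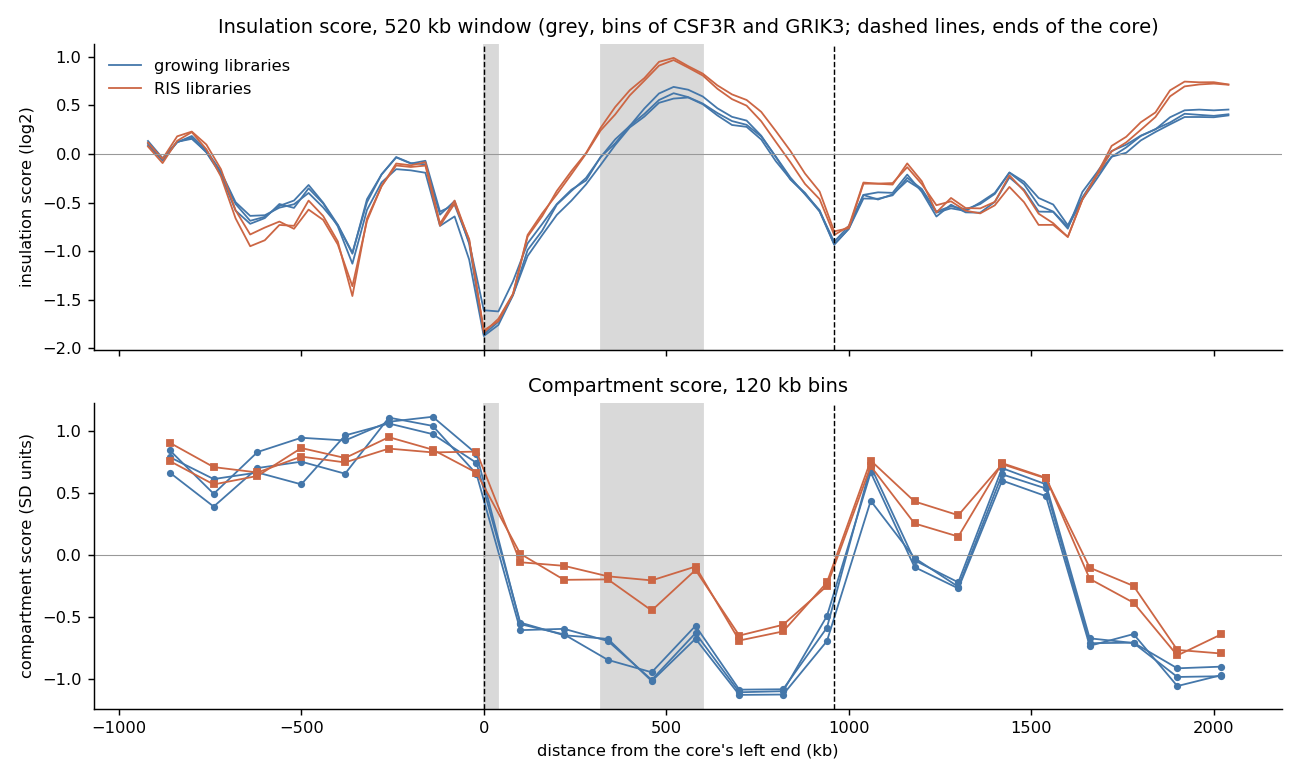
Insulation score (top, log2, window of 520 kb to either side) and compartment score (bottom, SD units, 120 kb bins) of each library against distance from the left end of the core in kb. Grey marks the bins of CSF3R and GRIK3 and dashed lines the ends of the core. Both scores run higher in RIS over the interior of the core, while the dip at its left end is alike, between -1.87 and -1.61.

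Distant contacts of the core with B bins were lower in RIS cells. Bins were labelled A or B by their mean compartment score in the growing libraries alone. The part of this choice in the difference was not tested. With B bins of chromosome 1 more than 2 Mb away, the log2 contact relative to that expected at the same distance was 0.89, 0.88 and 0.81 in growing libraries and 0.43 in both RIS libraries. A bins at such distances gave -0.64, -0.63 and -0.69 in growing and -0.83 and -0.84 in RIS libraries. No share over other regions was counted for these values. The compartment score draws on the same contacts of chromosome 1, so it is not an independent measurement. Between chromosomes, contact with B bins relative to that of all bins gave -0.25, -0.37 and -0.28 in growing and -0.78 and -0.70 in RIS libraries, while contact with A bins overlapped, with -0.81, -0.83 and -0.99 against -0.91 and -0.74. The fall was thus larger toward B than toward A bins. Of the 23 core bins on the B side, 19 were lower in both RIS libraries in contact with B bins of other chromosomes and 0 higher, against 29.1% lower among all B bins. The core held 2829 to 4360 contacts between chromosomes per library. Balancing forces every bin to the same total, so a gain of local contact and a loss of distant contact of the same bins are not independent measurements.

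The median raw coverage of the core bins before balancing was lower than that of the usable genome, by log2 values of -0.77, -0.87 and -0.87 in growing libraries and -0.80 and -0.70 in RIS libraries, and the groups overlapped. The core had a median GC content of 48.8%, against 40.7% for chromosome 1, and a median of 10 HindIII sites per bin, against 11. Their part in the result was not tested.

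GRIK3 was compared with the other kainate receptor genes by local contact, the log2 mean contact of a gene with the 12 bins to either side. GRIK3 stood at 0.02, -0.04 and 0.03 in growing libraries and at 0.25 and 0.18 in RIS libraries. Of the 5 kainate receptor genes it was the only one higher in both RIS libraries by this measure. GRIK2 fell from 0.61, 0.59 and 0.61 to 0.20 and 0.31, GRIK1 from -0.40, -0.52 and -0.46 to -0.68 and -0.61, and GRIK5 from -0.07, 0.05 and -0.18 to -0.41 and -0.34. GRIK4 overlapped. By contact among the bins of the gene itself, GRIK4 (means of 0.41 in growing and 0.65 in RIS libraries) and GRIK1 (0.23 and 0.31) were higher, as was GRIK3. GRIK2 was lower by this measure (0.18 and -0.02) and GRIK5 overlapped. Over 5860 protein-coding genes of 3 bins or more, the median change of this measure was 0.04. The share of these genes that were higher or lower was not counted, so nothing is read from these calls. In local contact, 31.3% of 19241 protein-coding genes were higher and 21.8% lower, with a median change of 0.01. Of the 12 other ionotropic glutamate receptor genes with values, 3 were higher and 6 lower, with a median change of -0.11. By compartment score at the start site, GRIK1, GRIK3 and GRIK4 were higher in both RIS libraries, where 28.8% of all bins were higher. GRIK2 was lower, with means of -1.33 in growing and -1.61 in RIS libraries, and GRIK5 overlapped. The share of all bins that were lower was not counted. GRIK3 went from a mean of -0.63 to -0.11.

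CSF3R itself gave a local contact of -0.32, -0.60 and -0.72 in growing libraries and -0.70 and -0.64 in RIS libraries, and the spread of the growing libraries covered the RIS values. In a list of 16 genes, CSF3, its ligand gene, and the class I cytokine receptors with CSF3R among them, 14 had values, 6 were higher and 4 lower in both RIS libraries, with a median change of 0.0011. CSF3 on chromosome 17 had the largest fall, from -0.29, -0.22 and -0.17 to -0.48 and -0.44, and IL11RA, the receptor for interleukin-11, the largest rise, from -0.28, -0.17 and -0.24 to -0.02 and -0.03. On chromosome 1, LEPR and IL12RB2 were higher, by 0.07 and 0.06, while IL6R overlapped.

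**Figure D5:**
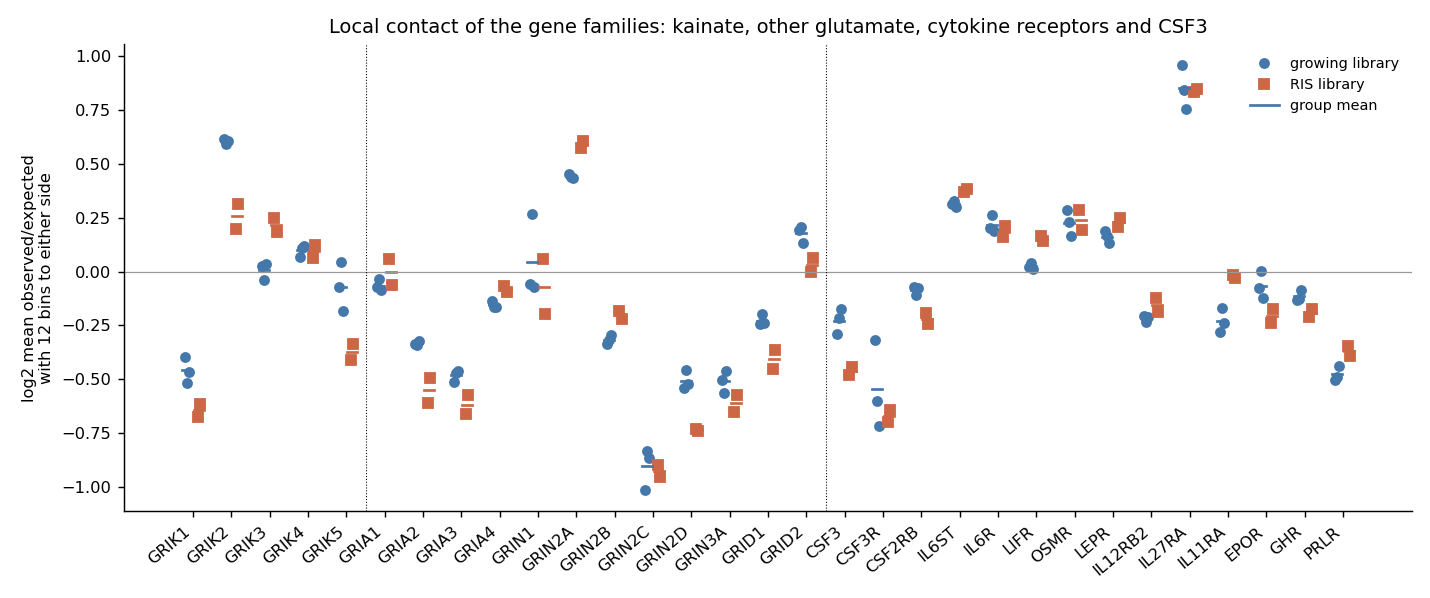
Local contact of the kainate receptor genes, the other ionotropic glutamate receptor genes, and CSF3 with the class I cytokine receptor genes, as log2 mean observed over expected contact with the 12 bins to either side. Circles are growing libraries (n = 3), squares RIS libraries (n = 2) and lines group means. GRIK3 is the only kainate receptor gene with both squares above all circles, and CSF3R overlaps.

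By the level of local contact over the 5 libraries, the gene closest to CSF3R was MRPS15, which shares its bin and so its values, followed by ZNF805 and RBM38 at Euclidean distances of 0.18 and 0.20 on the log2 scale. The closest to GRIK3 were HPSE and SOD3 on chromosome 4 and EPHB6 on chromosome 7, at 0.04, 0.04 and 0.05.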

How the data were processed

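Hi-C of 5 IMR90 libraries (3 growing, 2 RIS, biological replicates) was analysed. Per the labels and the study's methods, the authors mapped reads to hg19 using HiC-Pro, filtered artefacts with this tool and diffHic, and took out duplicates with samtools. The deposited signal is the ICE-balanced contact of each pair of 40 kb bins, with an equal total in each library. Undoing the balancing with a bias for every bin gave whole numbers in 100% of cases, also among values up to 20 contacts alone. The tolerance was 0.05 up to 20 contacts and grew in proportion above, so the largest values pass in any case. These recovered contacts gave the depth and the input of voom. The members, lists and tests were chosen with earlier results of these data known. Genes named were both members, protein-coding genes in the core or within 6 bins of it, the 3 with the strongest change of contact with the core in either direction, the listed receptor families and the 3 genes nearest in local contact. Some genes that this rule names are not reported here. Expected contact was the mean per distance on each chromosome over bins with values in all libraries. Windows needed 80% of their pairs. Borders were insulation minima with a prominence of 0.1. Component 1 was the closest of 3 to gene density on chromosome 1 in all 5 libraries. It was used on every other chromosome too, where its closeness to gene density is not given here. Bin pairs up to 2 Mb apart with a mean of at least 5 were tested by limma on the log2 scale (pseudocount 0.5), after a lowess correction on abundance (span 0.3, 4 iterations) and with Benjamini-Hochberg adjustment. Functions were tested on simulated data. Alternatives covered expected values, bin and window sizes, thresholds, scaling, blocks and each library left out. Gene positions came from GENCODE lifted to GRCh37, whose chromosome lengths equal those of the deposited bins. Software was Python 3.11.15, numpy 2.4.6, pandas 2.3.3, scipy 1.17.1, R 4.3.3 and limma 3.58.1.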

Additional observations from a re-analysis of the deposited data

How the results depend on the processing

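The changes of contact, insulation and compartment score within the core kept their direction under every alternative tried. The contact change of 0.32 became 0.23 as a mean of log2 values, 0.41 from recovered contacts and 0.29 among the libraries with many duplicates, and ranged from 0.31 to 0.34 with 1 library left out. The insulation change of 0.23 became 0.17 with a window of 5 bins, 0.28 with one of 20 bins, and 0.26 and 0.19 among the libraries with few and many duplicates, with 0.21 to 0.25 when 1 library was left out. The compartment change of 0.51 became 0.39 in bins of 200 kb and 0.58 in bins of 80 kb, and ranged from 0.49 to 0.53 with 1 library left out. With the replicate number as a block these 3 changes were 0.34, 0.24 and 0.51. These equal the values without growing replicate 3, which has no RIS library of its number, so the block adds no further check. Deviations of same-numbered libraries from their group means correlated at 0.0032 and -0.0010. With 2 RIS libraries these deviations mirror each other, and single pairs are noisy. The values therefore cannot show whether the numbers pair the libraries. Limma called 0 core pairs under each of its other settings, while voom called 6 in the main setting, 3 with the replicate block, 6 with the class of duplicates as a block, 23 with scaling to the total alone, and 0 to 3 with 1 library left out, the last 4 chosen after the data were seen. Genome-wide, limma called 770 pairs, 1187 with scaling to the total alone, 905 when scaled to the valid interactions listed by the study, 123 and 2482 with a smallest mean of 10 and 2, and 0 with a pseudocount of 2, with either block or without any 1 library. Scaling to the total alone moved the limma median over all pairs from -0.003 to -0.12 and over core pairs from 0.30 to 0.22 (log2). Voom called 11201, 24916 with scaling to the total alone, and 837 to 9893 with 1 library left out. The cause was not tested. Single pairs and the contacts of CSF3R rested on few counts each, and the part of depth in their spread was not tested.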
